A study of Mus musculus with 12 samples.

Results

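The receptors for the constant part of IgG, encoded by Fcgr1, Fcgr2b, Fcgr3 and Fcgr4, and the common signalling chain encoded by Fcer1g were followed across 4 conditions of mouse gastrocnemius, a calf muscle. The 5 genes were taken by name from the 54532 genes counted, and all 5 passed the filter on low counts that kept 15715 genes. The conditions, with 3 libraries each, were needling (an injection of the local anaesthetic bupivacaine, then acupuncture 24 hours later), injury (bupivacaine without acupuncture), saline (injected with saline) and naive (not injected). All animals were wild-type C57BL/6, 6 to 7 months old, and no transgene or other agent was named. Bupivacaine damages muscle fibres, and the damaged tissue is then cleared by infiltrating phagocytes. When the tissue was taken was not given in the sources used here, nor was it stated that replicates came from separate animals, so that a p-value here reflects library-to-library spread, which could be technical in origin.

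Fc gamma receptors let phagocytes bind particles and complexes coated with IgG. Mouse Fcgr1 encodes the high-affinity receptor and Fcgr3 and Fcgr4 encode receptors of lower affinity. These 3 are activating receptors, which reach the cell surface and signal through the common chain, whose activation motif (ITAM) is phosphorylated by Src-family kinases and then binds the kinase Syk. Fcgr2b encodes the inhibitory receptor, whose own inhibitory motif (ITIM) recruits the lipid phosphatase encoded by Inpp5d. In muscle these receptors are carried mainly by macrophages and other leukocytes, not by fibres.

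The coding stretches that set the 2 kinds of chain apart are shown because the contrast between activating and inhibitory chains is the axis of the comparison. They were read from GENCODE M21 transcripts of mm10, both encoded on the minus strand of chromosome 1. In the Fcer1g stretch (residues 65 to 79 of 86, transcript Fcer1g-201) capitals mark the codons for tyrosine and leucine that define the activation motif, and in the Fcgr2b stretch (residues 317 to 322 of 340, transcript Fcgr2b-201) they mark the codons for isoleucine, tyrosine and leucine of the inhibitory motif.
Fcer1g activation motif: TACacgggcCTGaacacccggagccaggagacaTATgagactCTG
Fcgr2b inhibitory motif: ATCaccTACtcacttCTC
The activation pattern was found in Fcer1g and in none of the reference coding sequences of the 4 receptors. The looser inhibitory pattern also matched 1 stretch of Fcer1g, 3 of Fcgr1 and 1 of Fcgr4, and a match of letters is a description, not a functional site.

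All but Fcgr1 lie in 1 stretch of chromosome 1 and Fcgr1 lies on chromosome 3 (all mm10). Fcgr2b (ENSMUSG00000026656) spans chr1:170958617-170976547 on the minus strand, Fcgr4 (ENSMUSG00000059089) chr1:171018920-171029761 on the plus strand, Fcgr3 (ENSMUSG00000059498) chr1:171051174-171064935 on the minus strand and Fcer1g (ENSMUSG00000058715) chr1:171229572-171234365 on the minus strand. Fcgr1 (ENSMUSG00000015947) spans chr3:96282909-96293969 on the minus strand. All are protein-coding. Fcgr2b and Fcgr3 are close copies: their transcripts share 166 distinct stretches of 50 bases, which is 2.92% of those of Fcgr2b and 9.58% of those of Fcgr3, and no other pair among the 5 genes shared any. With all annotated genes and both strands counted, 395 stretches of Fcgr2b (6.95%) occur in another gene. Reads from that shared part could have been assigned to either gene, and 1 exon of the antisense gene Gm38204 overlaps an exon of Fcgr2b on the opposite strand. Neither the counting tool nor its use of strand was given in the sources used here, so values of these 2 genes carry that uncertainty.

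Promoter windows of the 4 receptor genes, 300 bases that end 50 bases after the start annotated by RefSeq, are shown because the genes moved together in the counts described next. The sequences are those of RefSeq for GRCm38.p6, each 5′ to 3′ on the strand of its gene. The windows are chr3:96293920-96294219 (minus strand) for Fcgr1, chr1:171059354-171059653 (minus strand) for Fcgr3, chr1:171018676-171018975 (plus strand) for Fcgr4 and chr1:170976022-170976321 (minus strand) for Fcgr2b. Capitals mark matches to GAGGAA (the core bound by PU.1-type ETS factors, here read as TTCCTC on the printed strand), TTCNNNGAA (the STAT type) and the interferon-stimulated response element pattern, each searched on both strands.
Fcgr1 promoter: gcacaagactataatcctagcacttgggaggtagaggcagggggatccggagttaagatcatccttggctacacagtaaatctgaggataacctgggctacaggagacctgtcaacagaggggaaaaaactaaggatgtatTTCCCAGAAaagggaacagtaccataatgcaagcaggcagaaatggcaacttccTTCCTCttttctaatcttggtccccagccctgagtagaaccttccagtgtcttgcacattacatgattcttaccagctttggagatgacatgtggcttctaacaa
Fcgr3 promoter: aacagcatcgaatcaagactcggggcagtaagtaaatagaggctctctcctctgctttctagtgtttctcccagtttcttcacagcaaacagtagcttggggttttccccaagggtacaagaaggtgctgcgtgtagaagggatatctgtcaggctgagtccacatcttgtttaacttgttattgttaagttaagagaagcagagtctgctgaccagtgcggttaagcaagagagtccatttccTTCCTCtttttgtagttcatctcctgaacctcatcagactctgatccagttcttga
Fcgr4 promoter: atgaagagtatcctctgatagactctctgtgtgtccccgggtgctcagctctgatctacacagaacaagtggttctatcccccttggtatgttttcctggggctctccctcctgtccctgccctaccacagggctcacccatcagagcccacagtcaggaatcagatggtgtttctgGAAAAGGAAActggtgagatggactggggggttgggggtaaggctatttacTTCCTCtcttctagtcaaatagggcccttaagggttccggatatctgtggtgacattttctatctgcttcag
Fcgr2b promoter: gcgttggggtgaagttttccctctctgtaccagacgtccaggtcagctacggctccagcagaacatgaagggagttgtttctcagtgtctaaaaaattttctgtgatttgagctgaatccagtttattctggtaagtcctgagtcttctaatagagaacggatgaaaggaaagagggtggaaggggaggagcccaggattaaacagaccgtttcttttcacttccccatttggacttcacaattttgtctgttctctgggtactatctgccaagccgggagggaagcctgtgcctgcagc
GAGGAA was found once each in the windows of the activating receptors, with the match beginning at -55 in Fcgr1, -6 in Fcgr3 and -22 in Fcgr4 relative to the start (RefSeq gives Fcgr3 a further start, from which the same match is at -15), and in neither the Fcgr2b nor the Fcer1g window. Of 27025 promoters of the same length, 28.3% hold it. TTCNNNGAA was found at -109 in Fcgr1, where the match reads the same pattern on both strands (8.47% of promoters), and the interferon-stimulated response element pattern at -73 in Fcgr4 (3.49% of promoters). The 3 matches did not overlap each other within a window. No match says only that these letters are not in that window. The Fcgr3 and Fcgr2b windows lie inside the gene spans given above, so the upstream ends of those spans were not searched.

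Total counts ranged from 16385233 to 27155738 per library, and the counts behind the 5 genes ranged from 0 (Fcgr4 in naive replicate 3) to 2333 (Fcer1g in needling replicate 2). Skeletal muscle genes were the most abundant of the marker lists in every group, with summed levels of 59549 to 92197 CPM in needling, 84555 to 112823 CPM in injury, 114562 to 135525 CPM in saline and 118915 to 161254 CPM in naive libraries, as the tissue label has it. CPM (counts scaled per library with TMM) is used to follow 1 gene across libraries.

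Fcer1g, the common chain, had 55.4, 75.2 and 39.1 CPM in needling libraries, 27.5, 35.5 and 15.8 CPM in injury, 4.74, 8.19 and 10.7 CPM in saline and 5.81, 2.34 and 4.84 CPM in naive libraries (replicates 1, 2 and 3 of each). Each needling library was above every injury library, and each injury library above every saline library, while saline and naive libraries overlapped. Ranges were compared for the 5 genes only, so how common such separation is among all genes was not counted. The means were 56.6 ± 18.1 CPM in needling, 26.3 ± 9.95 CPM in injury, 7.89 ± 3.00 CPM in saline and 4.33 ± 1.79 CPM in naive muscle (SD, n = 3 each).

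Among the activating receptors, Fcgr3 had 51.6, 57.0 and 42.3 CPM in needling libraries, 30.6, 29.0 and 20.0 CPM in injury, 4.42, 10.8 and 10.8 CPM in saline and 4.87, 1.97 and 5.10 CPM in naive libraries. Its needling, injury and saline libraries formed 3 separate ranges, and the saline and naive ranges overlapped. Fcgr1, the high-affinity receptor, had 18.9, 33.8 and 12.5 CPM in needling libraries, 9.86, 15.2 and 6.76 CPM in injury, 0.897, 1.52 and 2.91 CPM in saline and 2.56, 0.320 and 0.969 CPM in naive libraries. Needling and injury libraries overlapped for Fcgr1, since needling replicate 3 lay below injury replicate 2, and both groups lay above all saline and naive libraries.

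Fcgr4 was the gene with the fewest counts: 96, 175 and 62 counts in needling libraries, 51, 66 and 37 in injury, 1, 11 and 9 in saline and 6, 5 and 0 in naive libraries. In CPM these are 3.48, 5.64 and 2.67 in needling, 2.09, 2.34 and 1.35 in injury, 0.0641, 0.617 and 0.451 in saline and 0.375, 0.266 and 0 in naive libraries. The needling range lay above the injury range and the injury range above the others, and its level in saline and naive muscle rests on at most 11 counts. The count of 0 in naive replicate 3 allows up to 0.140 CPM (3 counts of the library total, before TMM scaling), which covers counting error only.

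Fcgr2b, the inhibitory receptor, had 49.6, 50.8 and 42.3 CPM in needling libraries, 28.0, 23.6 and 15.7 CPM in injury, 5.83, 11.2 and 11.3 CPM in saline and 4.68, 2.93 and 6.02 CPM in naive libraries. Its ranges were separate between needling, injury and saline, and its saline and naive ranges overlapped by a single pair of libraries. Within needling, its coefficient of variation was 9.68%, against 50.2% for Fcgr1, 39.1% for Fcgr4, 32.0% for Fcer1g and 14.8% for Fcgr3. In bulk muscle RNA, a change in the number of cells that carry a receptor and a change in its RNA per cell cannot be told apart.

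**Figure D1:**
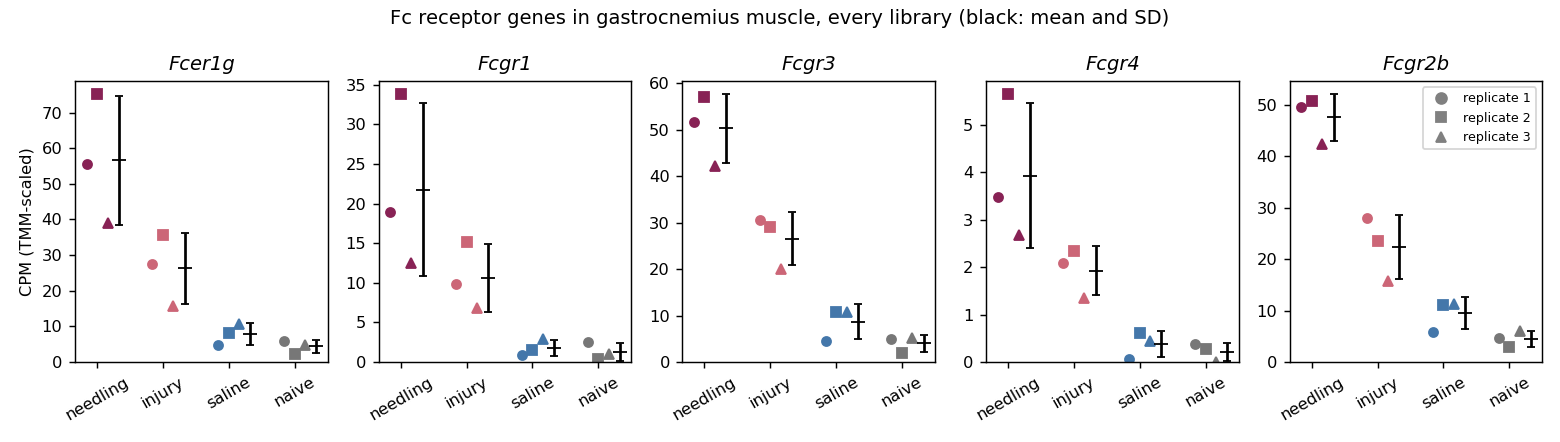
Level of each gene (vertical axis, TMM-scaled CPM, linear from 0, a different scale per panel) in every library of needling, injury, saline and naive muscle, marked by replicate number, with the mean and SD of 3 libraries in black. Needling libraries are the highest group for all 5 genes, and only Fcgr1 has a needling library (12.5 CPM) below an injury library (15.2 CPM). How many of all genes tested separate in this way was not counted.

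Needling against injury is the comparison of acupuncture with none in bupivacaine-treated muscle. With all 12 libraries in 1 fit, edgeR's quasi-likelihood test called 0 of the 5 genes at an adjusted p under 0.05, and 0% of all genes tested were called. The log2 differences were 1.11 ± 0.39 (SE) for Fcer1g (adjusted p = 0.212), 0.92 ± 0.34 for Fcgr3 (0.221), 1.04 ± 0.54 for Fcgr1 (0.382), 1.03 ± 0.47 for Fcgr4 (0.320) and 1.09 ± 0.28 for Fcgr2b (0.126). All 5 estimates were higher in needling and of similar size, without passing the adjusted threshold. At an unadjusted p under 0.05, 4 of the 5 genes and 2450 of the 15715 genes passed.

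The labels number the replicates of every group, and between needling and injury the deviations of libraries with the same number were correlated, at 0.238, 0.485 and 0.422 over the 15715 genes, although the labels give no shared origin for the numbers. With the replicate number as a block in the 6 libraries of these groups, edgeR called all 5 genes higher in needling, and 20.6% of the genes tested were called in that fit (1988 higher and 1200 lower in needling). The blocked log2 differences were 1.10 ± 0.08 for Fcer1g (adjusted p = 6.79e-05), 0.90 ± 0.08 for Fcgr3 (9.98e-05), 0.97 ± 0.09 for Fcgr1 (1.23e-04), 0.98 ± 0.20 for Fcgr4 (0.00661) and 1.08 ± 0.11 for Fcgr2b (5.59e-04). With the same block in the fit of all 12 libraries, 0 of the 5 genes and 0% of all genes tested were called (adjusted p from 0.143 for Fcgr2b to 0.382 for Fcgr1). The sizes were close in the 3 fits. Of the 5, DESeq2 called only Fcgr2b (adjusted p = 0.0134, beside 4.28% of all genes tested), as did limma on log2(FPKM + 1) (adjusted p = 0.0480, beside 1.02%). With limma-voom and quality weights, Fcgr2b, Fcgr3 and Fcer1g were called (adjusted p = 0.0194, 0.0377 and 0.0484), beside 5.8% of all genes tested.

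In needling against saline, all 5 genes rose in needling muscle in every setting tried. The edgeR fit of 12 libraries called 29% of all genes tested (2853 higher and 1703 lower). Over the different fits that share ran from 13.5% to 42.9%. In edgeR the log2 differences were 3.58 ± 0.63 (SE) for Fcgr1 (adjusted p = 0.00249), 3.33 ± 0.59 for Fcgr4 (0.00135), 2.83 ± 0.42 for Fcer1g (9.48e-04), 2.52 ± 0.36 for Fcgr3 (6.54e-04) and 2.33 ± 0.29 for Fcgr2b (2.49e-04). These are 11.995-fold, 10.03-fold, 7.13-fold, 5.75-fold and 5.02-fold in the same order, and Fcgr2b had the smallest estimate. The median over the 5 genes was 2.83 and over all genes tested -0.04. Saline and injury libraries each enter several of these comparisons, so their results are not independent of each other.

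Injury against saline is the comparison of bupivacaine with the injection alone. Fcer1g, Fcgr3 and Fcgr2b rose in injured muscle (3 of 5 genes), against 4.03% of all genes tested (622 higher and 11 lower). The edgeR log2 differences were 1.73 ± 0.42 (SE) for Fcer1g (adjusted p = 0.0489), 1.60 ± 0.36 for Fcgr3 (0.0360) and 1.24 ± 0.29 for Fcgr2b (0.0382). Those of the other receptors were larger with larger errors, 2.55 ± 0.63 for Fcgr1 (0.0540) and 2.29 ± 0.61 for Fcgr4 (0.0548), just beyond the threshold. With the 2 groups fitted alone, the calls were instead Fcgr1 and Fcgr4 (edgeR adjusted p = 0.0316 and 0.0400, beside 3.79% of all genes tested), and with a replicate block in 12 libraries Fcgr4 alone (0.0452, beside 3.09%). All 5 genes lay close to the threshold, and the split between called and not called depended on single libraries. None of the 5 was called without saline replicate 1, 2 or 3 (beside 0.638%, 0% and 2.61% of all genes tested). The same held without injury replicate 1 or 2, where 0% of all genes tested were called. All 5 were called without injury replicate 3 (beside 6.63% of all genes tested). DESeq2, limma-voom and limma on log2(FPKM + 1) called all 5 (beside 5.84%, 7.04% and 2.86% of all genes), and edgeR called none of the 5 when no genes were filtered out (beside 2.45%).

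Saline against naive asks what the injection alone did. edgeR called 0 of the 5 genes and 0% of all genes tested, while 1858 genes and 2 of the 5 (Fcgr2b and Fcgr3) passed an unadjusted p under 0.05. The log2 differences were 1.14 ± 0.39 for Fcgr3, 1.06 ± 0.31 for Fcgr2b, 0.91 ± 0.83 for Fcgr4, 0.88 ± 0.45 for Fcer1g and 0.54 ± 0.74 for Fcgr1, with adjusted p between 0.307 and 0.793. DESeq2 called Fcgr2b (adjusted p = 0.0448), beside 1.25% of all genes tested. The limma fits on FPKM and limma-voom called 0 genes.

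With naive muscle in place of saline, all 5 genes rose in both bupivacaine groups. In injury against naive, 17.6% of all genes tested were called, and the log2 differences of the 5 ran between 2.30 ± 0.31 (Fcgr2b) and 3.201 ± 0.67 (Fcgr4), with edgeR adjusted p between 7.07e-04 and 0.0110. In needling against naive, 41.6% of all genes tested were called, and the differences ran between 3.39 ± 0.31 (Fcgr2b) and 4.23 ± 0.65 (Fcgr4), with adjusted p between 1.56e-05 and 8.36e-04. Fcgr2b had the smallest estimate of the 5 in both. Ratios of the others to Fcgr2b, described below, gave exact permutation p from 0.1 to 0.6 in injury against naive. In needling against naive the exact permutation p ran from 0.2 to 0.8, and 3 libraries a group cannot give less than 0.1.

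**Figure D2:**
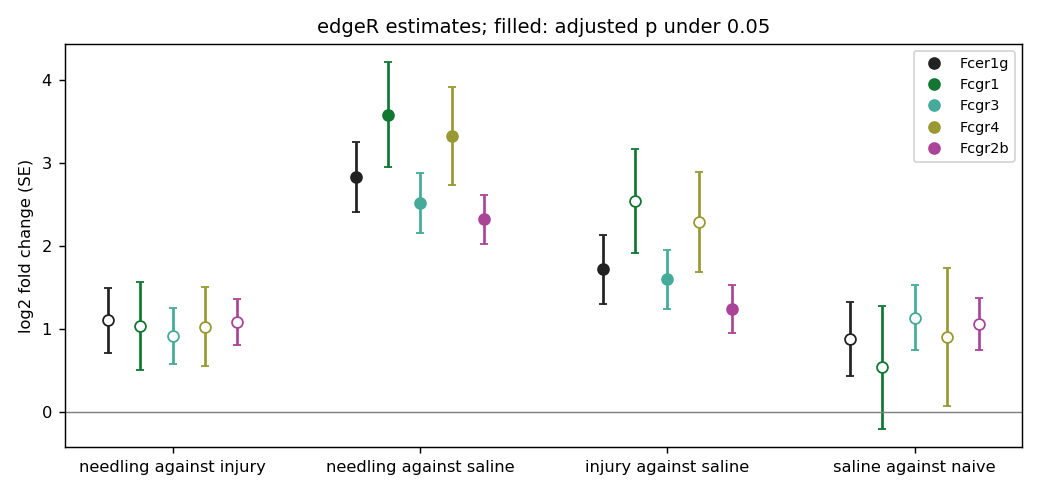
The edgeR log2 fold change of each gene (vertical axis, point and SE) in 4 comparisons, filled where the adjusted p was under 0.05 and open otherwise. All 5 points are filled in needling against saline, 3 in injury against saline and none in the other comparisons, where the estimates lie between 0.54 and 1.14.

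Levels can be set between genes only per length, for which the deposited FPKM values were used. Fcer1g had the highest mean FPKM in all 4 groups, 64.8 in needling, 30.03 in injury, 8.95 in saline and 4.94 in naive muscle, and Fcgr3 was next with 29.0, 15.3, 4.96 and 2.28 in the same groups. The libraries of these 2 genes did not overlap in needling (44.4 to 86.6 FPKM for Fcer1g and 24.2 to 33.0 FPKM for Fcgr3) or in injury (17.9 to 40.7 and 11.4 to 17.6 FPKM), and overlapped in saline and naive muscle. In the middle of the order Fcgr1 and Fcgr2b could not be ranked in needling, where Fcgr1 had 4.79 to 13.1 FPKM and Fcgr2b 7.26 to 8.84 FPKM, nor in injury, where Fcgr1 had 2.59 to 5.85 FPKM and Fcgr2b 2.69 to 4.83 FPKM. In saline and naive muscle Fcgr2b had the higher mean (1.62 against 0.679 FPKM for Fcgr1 in saline and 0.781 against 0.495 FPKM in naive), with ranges that overlapped. Fcgr4 was lowest in every group, at 3.13, 1.53, 0.298 and 0.171 FPKM in needling, injury, saline and naive muscle, although in the last 2 groups its range reached that of Fcgr1.

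By the deposited FPKM, Fcgr3 had the largest share of the 4 receptors in each condition, which depends on the gene lengths used for FPKM. In CPM, which takes no account of length, Fcgr3 and Fcgr2b averaged 50.3 and 47.6 in needling and 26.6 and 22.4 in injury. In saline they averaged 8.69 and 9.44, and in naive muscle 3.98 and 4.54, with Fcgr2b the higher. Of the summed FPKM of the 4 receptors Fcgr3 took 60.0 ± 3.99% in needling, 62.0 ± 2.98% in injury, 65.5 ± 1.75% in saline and 60.7 ± 5.88% in naive muscle (SD, n = 3 each). Fcgr1 took 16.6 ± 4.95% in needling, 16.2 ± 3.73% in injury, 8.90 ± 2.64% in saline and 11.7 ± 7.46% in naive muscle. The inhibitory Fcgr2b took 17.2 ± 2.09% in needling, 15.6 ± 1.54% in injury, 22.2 ± 2.87% in saline and 22.0 ± 4.83% in naive muscle. Fcgr2b's share was below every saline library in all 6 needling and injury libraries, while the naive range (16.5% to 25.6%) overlapped them.

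**Figure D3:**
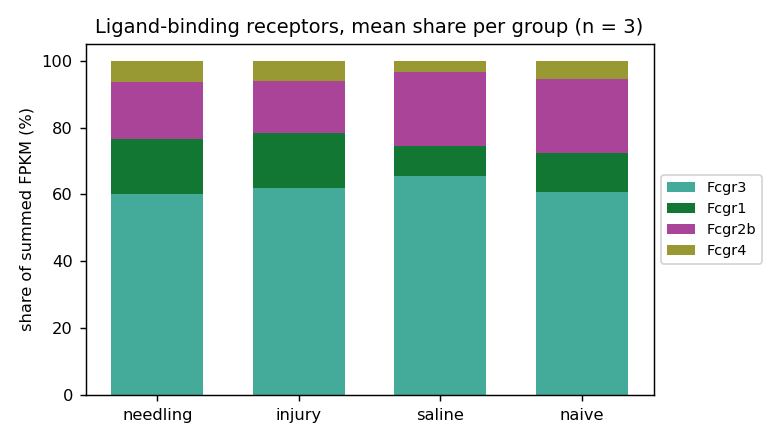
Mean share of the summed FPKM of the 4 IgG-binding receptors (vertical axis, percent, stacked bars from 0) in needling, injury, saline and naive muscle, n = 3 libraries each. Fcgr3 is the largest part of every bar (60.0% to 65.5%), and Fcgr2b is 17.2% in needling and 15.6% in injury against 22.2% in saline and 22.0% in naive muscle.

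To follow activating against inhibitory chains without the scaling of libraries, each activating count was divided by the Fcgr2b count of the same library, with 0.5 added to both, and the log2 ratio was compared between groups. A change in this ratio does not depend on gene length. The Fcgr1 ratio was -1.39, -0.59 and -1.76 in needling libraries, -1.50, -0.64 and -1.21 in injury, -2.66, -2.86 and -1.95 in saline and -0.86, -3.09 and -2.60 in naive libraries. All 6 bupivacaine libraries were above the 3 saline libraries, and naive replicate 1 lay among the bupivacaine libraries. The Fcgr3 ratio was 0.06, 0.16 and 0.00 in needling, 0.13, 0.30 and 0.35 in injury, -0.40, -0.04 and -0.07 in saline and 0.06, -0.57 and -0.24 in naive libraries. It too separated the bupivacaine from the saline libraries but not from naive replicate 1.

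Over the 6 needling and injury libraries together, against the 6 saline and naive libraries, the ratio to Fcgr2b was higher by 1.16 for Fcgr1 (exact permutation p = 0.0195, two-sided), 0.38 for Fcgr3 (p = 0.00433), 1.31 for Fcgr4 (p = 0.0714) and 0.39 for Fcer1g (p = 0.0519) on the log2 scale. This test takes the 6 libraries as independent. Needling and injury libraries were correlated by replicate number, so these p-values may be too small. After Benjamini-Hochberg adjustment over the 28 ratio tests run, none passed: the adjusted exact permutation p was 0.121 for Fcgr3 and 0.233 for the others. The smallest exact permutation p for 6 against 6 libraries is 0.00216. Over 28 tests, a single ratio could therefore not pass even with full separation. That none passed does not say that the ratios were unchanged. The change in Fcgr3 against Fcgr2b also bears the uncertainty of their shared reads. With 3 libraries a group the smallest exact permutation p is 0.1, so no comparison of 2 groups could pass. Between needling and injury the ratios differed by -0.13 for Fcgr1, -0.19 for Fcgr3, -0.13 for Fcgr4 and 0.01 for Fcer1g, with overlapping libraries in each, and unpaired exact permutation p from 0.2 to 1. Within same-numbered pairs the Fcgr3 ratio was lower in needling in 3 of 3 (by -0.07, -0.13 and -0.35), and the Fcgr2b share of receptor FPKM was higher in needling in 3 of 3. The exact sign-flip permutation p was 0.25 for both, the smallest that 3 pairs can give, and was 0.75 to 1 for the other ratios, whose pairs differed in direction.

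**Figure D4:**
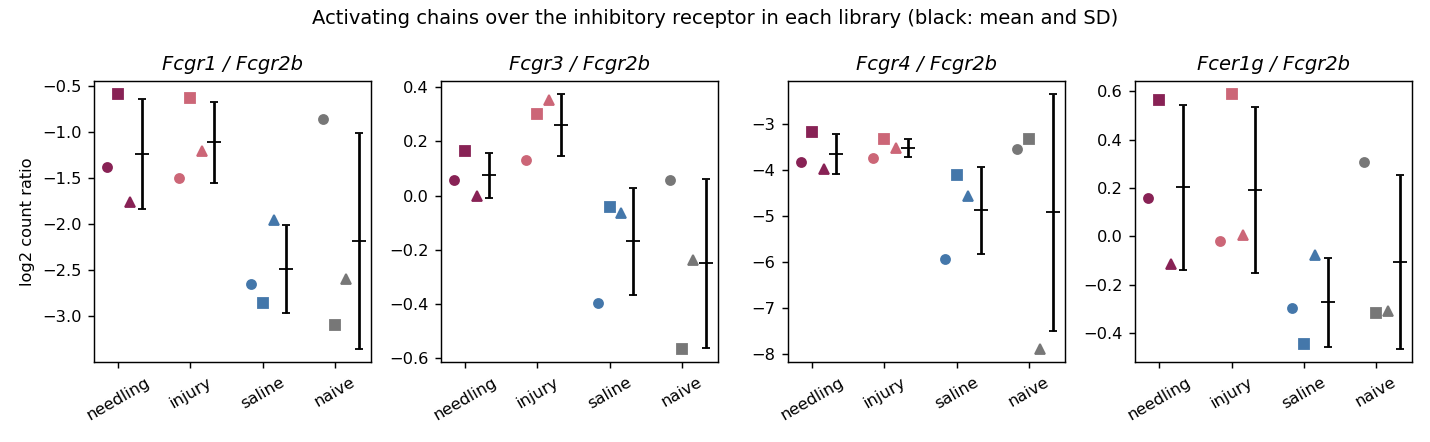
Log2 ratio of each activating chain's count to the Fcgr2b count (vertical axis) in every library of needling, injury, saline and naive muscle, with the mean and SD of 3 libraries in black. For Fcgr1 and Fcgr3 the needling and injury libraries lie above the saline libraries, and naive replicate 1 (circle) lies among them.

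Markers of macrophages, which carry these receptors, moved with them. The summed level of the 12 macrophage markers was 1739 to 2428 CPM in needling, 749 to 1222 CPM in injury, 191 to 440 CPM in saline and 93.1 to 187 CPM in naive libraries, and none of the 12 was at 0 in any group. All 12 rose in needling against saline, 6 of 12 in injury against saline and 0 of 12 in needling against injury (edgeR, 10 of 12 at an unadjusted p under 0.05, and 12 of 12 called with the replicate block of 6 libraries). The shares of all genes called were 29%, 4.03%, 0% and 20.6% in these fits. The markers had median log2 differences of 2.61, 1.58 and 0.95 beside -0.04, -0.03 and 0.01 over all genes tested. Adgre1, a surface marker of mature mouse macrophages, averaged 62.4 ± 7.94 CPM in needling and 8.24 ± 3.29 CPM in saline muscle (log2 difference 2.91 ± 0.31, edgeR adjusted p = 1.42e-04). The part of cell number in the receptor results was not tested.

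Set against the mean log2 CPM of the 12 markers in the same library, the 5 genes differed in how their offset changed. Across the 6 needling and injury libraries minus the 6 saline and naive libraries, the offset changed by 0.07 for Fcer1g and 0.06 for Fcgr3 on the log2 scale, by 0.77 for Fcgr1, by 0.50 for Fcgr4 and by -0.31 for Fcgr2b. Exact permutation p, adjusted over the 5 genes, was 0.532 for Fcer1g and Fcgr3, 0.0812 for Fcgr1, 0.509 for Fcgr4 and 0.0541 for Fcgr2b, so none passed. Here too the test takes needling and injury libraries as independent, although they were correlated by replicate number. The mean Fcgr2b offset was -0.37 ± 0.15 in needling and -0.52 ± 0.15 in injury muscle, against -0.13 ± 0.14 in saline and -0.13 ± 0.20 in naive muscle (SD, n = 3 each).

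**Figure D5:**
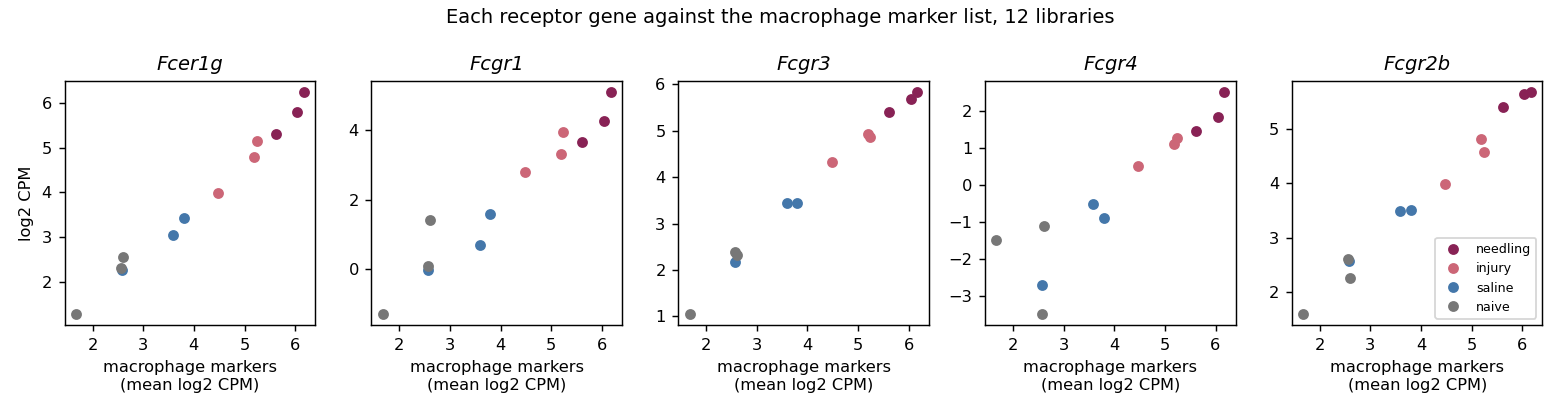
Level of each gene (vertical axis, log2 CPM with a prior count of 2, a different scale per panel) against the mean log2 CPM of 12 macrophage markers (horizontal axis) in the 12 libraries, coloured by group. The 3 needling libraries have the highest marker means and, for every gene but Fcgr1, the 3 highest levels.

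In needling against saline, most tested markers of other cells that can carry Fc gamma receptors had higher estimates, from few counts. In that comparison 29% of all genes tested were called. The 8 natural killer cell markers summed to 2.14 to 2.41 CPM in needling, 0.923 to 1.92 CPM in injury, 0.451 to 0.513 CPM in saline and 0.187 to 0.510 CPM in naive libraries, and 2 of the 2 tested rose in needling against saline (median log2 difference 2.41). The 11 neutrophil markers summed to 8.52 to 11.6 CPM in needling, 2.71 to 6.63 CPM in injury, 0.833 to 1.52 CPM in saline and 0.373 to 9.99 CPM in naive libraries, with Ly6g, a defining marker, at 0 in all needling, injury and saline libraries. Of the 4 neutrophil markers tested, Csf3r and Mmp8 rose in needling against saline, and the median log2 difference of the 4 was 2.60. Klrd1, a natural killer cell marker, averaged 0.901 CPM in needling, 0.321 in injury and 0.156 in saline muscle. For Mmp8 the means were 1.04, 0.355 and 0.166 CPM. Genes this low can pass the filter on low counts through their needling libraries alone. The counts and medians of tested natural killer cell and neutrophil markers may be shaped by that filter and say nothing about untested markers. In saline against naive, 1 of the 4 neutrophil estimates was higher and their median was -1.17, with 0 called. The 7 B cell and plasma cell markers summed to 12.3 to 21.2 CPM in needling, 6.87 to 10.6 CPM in injury, 5.36 to 6.79 CPM in saline and 4.05 to 6.37 CPM in naive libraries. Sdc1, which other cells also express, was the only one of 3 tested to rise in needling against saline, near the share of all genes called. In needling against naive, where 41.6% of all genes were called, Sdc1 and Cd79b rose and Mzb1 fell (log2 -1.26 ± 0.45, edgeR adjusted p = 0.0396). B cells carry Fcgr2b and lack the other receptors.

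Mast cells, which carry the common chain in the IgE receptor, gave no call: 0 of 7 markers passed in edgeR in any of the 6 comparisons (2 at an unadjusted p under 0.05, both in saline against naive). Of all genes tested, 0% to 41.6% were called in these comparisons. The mast cell sums were 14.1 to 23.5 CPM in needling and 25.3 to 34.3 CPM in saline libraries. In needling against saline 2 of 7 dendritic cell markers, 1 of 3 T cell markers and 1 of 4 platelet markers rose, shares near the 29% of all genes called. The platelet marker was Pf4, which macrophages also express, at 78.8 ± 20.9 CPM in needling and 15.7 ± 2.32 CPM in saline muscle. In the same comparison 3 of 7 endothelial markers and 4 of 7 skeletal muscle markers fell. Their part in the receptor results was not tested.

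Signalling genes downstream of the common chain moved with it. Of 21 kinases and adaptors of ITAM signalling, 20 rose and none fell in needling against saline, 9 rose and none fell in injury against saline, and 0 passed in needling against injury (edgeR, 14 at an unadjusted p under 0.05, and 16 called higher with the replicate block of 6 libraries). The shares of all genes called in these fits were 29%, 4.03%, 0% and 20.6%. Their median log2 differences were 2.21, 1.25 and 0.81 in the same order. Syk, the kinase that binds the phosphorylated motif, had 33.8 ± 5.13 CPM in needling, 17.9 ± 3.63 CPM in injury and 8.26 ± 1.59 CPM in saline muscle. It rose by 2.03 ± 0.20 in needling against saline (log2, edgeR adjusted p = 9.98e-05) and by 1.11 ± 0.20 in injury against saline (0.0158). Lat2 and Blnk, adaptors, and Pik3r5, a regulatory subunit of phosphoinositide 3-kinase gamma, rose in needling against saline by 3.00 ± 0.36, 1.90 ± 0.24 and 2.83 ± 0.35.

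Of 11 phosphatases and adaptors on the inhibitory side, 7 rose and 1 fell in needling against saline, 3 rose in injury against saline, and 0 passed in needling against injury (edgeR, 6 at an unadjusted p under 0.05, and 7 called higher with the replicate block of 6 libraries), beside the same 29%, 4.03%, 0% and 20.6% of all genes. Their median log2 differences were 1.32, 0.67 and 0.66. Inpp5d, the phosphatase recruited by Fcgr2b, averaged 27.7 ± 4.80 CPM in needling, 14.9 ± 4.78 CPM in injury and 5.14 ± 1.14 CPM in saline muscle, a log2 difference of 2.42 ± 0.32 in needling against saline (edgeR adjusted p = 3.33e-04) and 1.53 ± 0.32 in injury against saline (0.0266). Dok1 and Dok3, docking adaptors, and Cbl, a ubiquitin ligase, rose by 2.14 ± 0.25, 2.37 ± 0.30 and 1.02 ± 0.13 in needling against saline.

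Other receptors that pair with the common chain were 14 listed genes, of which 10 were in the table and 7 were tested. In needling against saline 6 of the 7 rose, in injury against saline 1 rose, and in needling against injury 0 passed (edgeR, 3 at an unadjusted p under 0.05, and 3 called higher with the replicate block of 6 libraries). Of all genes, 29%, 4.03%, 0% and 20.6% were called in these fits. Clec4n, the lectin Dectin-2, averaged 5.49 ± 0.99 CPM in needling, 2.56 ± 1.03 CPM in injury and 0.265 ± 0.068 CPM in saline muscle (log2 4.36 ± 0.65 in needling against saline, edgeR adjusted p = 4.95e-04). Cd300ld and Il3ra rose by 1.89 ± 0.29 and 1.46 ± 0.27 in the same comparison.

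The remaining genes listed with the Fc receptors, which include Fc receptor-like genes, were mostly at low counts, and 4 of 13 were tested. In needling against saline 1 of these 4 rose, near the 29% of all genes called, and in needling against naive all 4 rose, where 41.6% of all genes were called. The 1 was the Fc receptor-like gene Fcrls, at 16.8 ± 6.14 CPM in needling and 5.32 ± 0.68 CPM in saline muscle (log2 1.66 ± 0.30, edgeR adjusted p = 0.00165). Fcgrt, the neonatal Fc receptor that recycles IgG, had 64.1 ± 6.67 CPM in needling and 51.8 ± 10.2 CPM in injury muscle, with a log2 difference of 0.31 ± 0.18 that did not pass (edgeR adjusted p = 0.432). Against the 36.1 ± 9.11 CPM of naive muscle, its needling level was higher by 0.83 ± 0.18 (edgeR adjusted p = 0.00324).

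Of 13 immunoglobulin constant genes, 5 were tested, and edgeR called 0 in each of the 6 comparisons, with 0 at an unadjusted p under 0.05. Of all genes tested, 0% were called in saline against naive and needling against injury, and 4.03% in injury against saline. The shares were 17.6% in injury against naive, 29% in needling against saline and 41.6% in needling against naive. Ighm, the constant region of IgM, averaged 110 ± 44.8 CPM in needling, 128 ± 43.5 CPM in injury, 149 ± 29.1 CPM in saline and 143 ± 12.02 CPM in naive muscle. Ighg1 was at 0 in all 12 libraries, where a count of 0 allows 0.110 to 0.183 CPM by the same measure. Ptx3, of the pentraxin family that can bind Fc gamma receptors, was the 1 tested of 3 pentraxins and fell by 0.58 ± 0.19 in needling against saline (log2, edgeR adjusted p = 0.0346), with 13.7 ± 2.75 CPM in needling and 20.4 ± 3.51 CPM in saline muscle. IgG itself circulates as protein and was not measured.

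Likeness of profile was measured as the root-mean-square difference in centred log2 CPM over the 12 libraries, among 13601 protein-coding genes tested. The genes nearest to Fcer1g were Lcp1 (0.115), Spi1 (0.134) and Cd48 (0.168), and those nearest to Fcgr3 were Ptafr (0.163), Cd48 (0.181) and Laptm5 (0.186). For Fcgr2b they were Unc93b1 (0.159), Susd3 (0.164) and Racgap1 (0.176), and among those nearest to Fcgr1 were Nxpe5 (0.282) and Itgb2 (0.331). For Fcgr4, whose profile rests on few counts, the nearest 3 genes were farther off (0.409 to 0.456) and are not named. Among the 5 genes themselves, Fcer1g and Fcgr3 differed by 0.241, Fcer1g and Fcgr2b by 0.326, and Fcgr1 and Fcgr2b by 0.798. All these values share the same 12 libraries and are descriptions.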

How the data were processed

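Muscle RNA of 12 libraries, 4 groups of 3, was measured by RNA sequencing. Reads were aligned with HISAT2 2.0.5 to mm10, per the submitters' processing notes, and for the counting tool and annotation nothing is stated in the labels. The authors deposited a table of whole-number counts per gene and a table of FPKM values. Counts divided by FPKM had a constant ratio between libraries (12934 genes, 100% within 1e-06 on the log2 scale), so the deposited FPKM carry the same measurements scaled by length. GENCODE M21 gave symbols for 54409 of the 54532 gene IDs.

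The test was edgeR 4.0.16 (quasi-likelihood, TMM scaling, filter on low counts by group, robust; R 4.3.3), run on the deposited counts of 12 libraries in 1 fit, two-sided, and Benjamini-Hochberg adjustment over 15715 genes at 0.05. The precision of a value follows from its count, and totals ran between 16385233 and 27155738. Ratios and offsets to markers used exact permutation tests over libraries (scipy 1.17.1), with 0.5 counts added in ratios and a prior count of 2 in log2 CPM. DESeq2 1.42.0, limma 3.58.1 on log2(FPKM + 1) and on log2(FPKM + 0.1), limma-voom, median-ratio size factors, other filters, 2 groups alone, a replicate block, a 2-fold minimum and leaving out each library were the alternatives. On counts simulated for needling against injury, with 200 of 15375 genes changed, the test recovered 56% of 2-fold and 88% of 4-fold changes. The simulated libraries were independent, and the groups differed only in those 200 genes. The real needling and injury libraries were correlated by replicate number, so these rates may not hold for them.

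The 5 genes, the 16 other gene lists and the tests were chosen with earlier results of these data known. All 5 genes are described. From the other lists, up to 4 genes with the smallest adjusted p in a comparison qualified to be named, or up to 2 with the highest level where none passed, and which of these are named was chosen after their values were seen. For likeness, the 3 nearest genes of each qualified; 1 of those for Fcgr1 and all 3 for Fcgr4 are not reported here.

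Whether replicate numbers pair the libraries was checked by the correlation of same-numbered deviations from group means. Only injury and needling passed 0.1 in all 3 pairs (0.238, 0.485 and 0.422). The labels give no source for this pairing. Needling and saline gave 0.216, 0.176 and 0.0413, and saline and naive 0.0672, 0.111 and 0.0822. Promoter sequences came from RefSeq (GRCm38.p6).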

Additional observations from a re-analysis of the deposited data

How the results depend on the processing

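In needling against saline and needling against naive, all 5 genes were called in every setting tried, leaving out each library included (5 to 5). Over these fits, 13.5% to 42.9% and 19.5% to 44.9% of all genes tested were called. In injury against naive all 5 were called except with the replicate block in 2 groups alone (3, beside 8.34% of all genes tested). All 5 were also called when each library was left out (5 to 5). Over these fits 8.09% to 19.9% of all genes tested were called. In injury against saline, 3 were called in the main fit, beside 4.03% of all genes tested. The count was 5 with DESeq2, limma on log2(FPKM + 1), limma-voom and a stricter filter (beside 5.84%, 2.86%, 7.04% and 5.28%). It was 2 with 2 groups alone (Fcgr1 and Fcgr4, so that the 3 lost their calls, beside 3.79%). With limma on log2(FPKM + 0.1) it was 4 (beside 3.7%). With the replicate block in 12 libraries it was 1 (Fcgr4, the 3 again lost, beside 3.09%). It was 0 with the block in 2 groups alone, where 0% of all genes were called, and 0 with no filter (beside 2.45%). Leaving out each library gave 0 to 5 (beside 0% to 6.63%). In needling against injury, 0 were called in the main fit, beside 0% of all genes tested. The count was 5 with the replicate block in 2 groups alone (beside 20.6%) but 0 with the block in 12 libraries (beside 0%). It was 3 with limma-voom, 1 with limma on log2(FPKM + 1) and 1 with DESeq2 (beside 5.8%, 1.02% and 4.28%). Leaving out each library gave 0 to 0 (beside 0% to 0.00619%). In saline against naive, where 0 were called, it was 1 with DESeq2 (beside 1.25%). Directions of single genes held except that Fcgr1 in saline against naive was -0.023 (log2) without saline replicate 3, beside 0.54, and ran between -0.023 and 1.49 over libraries left out. The offset of Fcgr3 to macrophage markers was -0.0023 without naive replicate 2 and 0.06 with it, and ran between -0.0023 and 0.096 over libraries left out. The Fcgr2b offset passed with log2(FPKM + 0.1) (-0.30, adjusted exact permutation p = 0.0325) and without naive replicate 1, saline replicate 3 or needling replicate 3, ranging between -0.36 and -0.27 over libraries left out, and that of Fcgr1 passed without naive replicate 1 (0.66 to 1.01 over libraries left out). No ratio to Fcgr2b passed in any of these settings (adjusted exact permutation p from 0.0606 to 0.4), where a single ratio could not pass even with full separation. The tests of offsets and ratios took needling and injury libraries as independent of each other. Fcgr4 fell below the filter in saline against naive with 2 groups alone. The paired view of the ratios was chosen after seeing the data. Causes of these changes were not tested. Depth limits Fcgr4 most, at 0 to 11 counts in saline and naive libraries. The replicate block was a pairing by number, which the labels do not explain, and it changed no call in needling against saline, needling against naive or saline against naive.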
